A study of Homo sapiens with 16 samples.

Results

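The late chase in control cells is the last 3 h of a SLAM-seq time course, between 4.5 and 7.5 h after a pulse of 4-thiouridine, a uridine analogue that marks RNA made while it is present. It covers 4 of the 16 libraries of the series, 2 control libraries at 7.5 h and 2 at 4.5 h. The cells are THP-1, an established human monocytic leukaemia line that carries a KMT2A (MLL) fusion and lacks functional p53. Both groups are wild type for ALKBH5, an eraser of the RNA methyl mark m6A, and both received 100 µM 4-thiouridine for 1 h, a wash, and 10 mM unlabelled uridine for the chase. The other groups drawn on are the control libraries at 0 and 1.5 h and the ALKBH5 knockdown libraries at 7.5, 4.5, 1.5 and 0 h, 2 libraries each. The labels do not say whether the 2 libraries of a group are separate cultures, and the spread behind the p-values may thus be technical. Genes were chosen by a CPM of at least 5, which 10553 of 60564 genes met. Tests cover 10530 of these, those not listed at 0 throughout.

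In a SLAM-seq chase, thiouridine that was built into RNA during the pulse is read as cytosine in place of thymine, and the share of converted bases in a gene's reads falls as labelled molecules are degraded and unlabelled ones replace them. mRNAs differ widely in this turnover: transcripts of transcription factors, cytokines and signalling inhibitors are known to be short-lived, and those of ribosomal proteins, respiratory enzymes and the cytoskeleton are known to be long-lived. Short-lived mRNAs often carry AU-rich elements in the 3′ UTR, where proteins of the ZFP36 family recruit the CCR4-NOT deadenylase. A conversion rate is a share, so it says nothing about how much of a transcript the cells held.

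Label was lower at 7.5 h than at 4.5 h over the bulk of genes. The median conversion rate over all tested genes was 0.258% and 0.259% in the 7.5 h libraries, against 0.318% and 0.330% in the 4.5 h libraries, so the 2 times did not overlap. The mean of these medians was 0.259% ± 0.000861 at 7.5 h and 0.324% ± 0.00819 at 4.5 h (SD, n = 2 each). At 7.5 h, 404 and 288 genes were listed at a rate of 0, against 203 and 127 at 4.5 h. The Spearman correlation between the 2 libraries of a time, across genes that are not independent replicates, was 0.435 at 7.5 h and 0.493 at 4.5 h, against 0.747 in control at 0 h. In the CPM column 9 monocyte markers summed to 3414 CPM, from 1.93 to the 1425 of the receptor chain FCER1G, and 7 of the 9 reached a CPM of 5. Lymphoid, erythroid, kidney and megakaryocyte markers summed to between 0.476 and 6.01 CPM. Of 5 lymphoid markers 1 reached a CPM of 5, and of the erythroid, kidney and megakaryocyte markers 0 did.

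**Figure D1:**
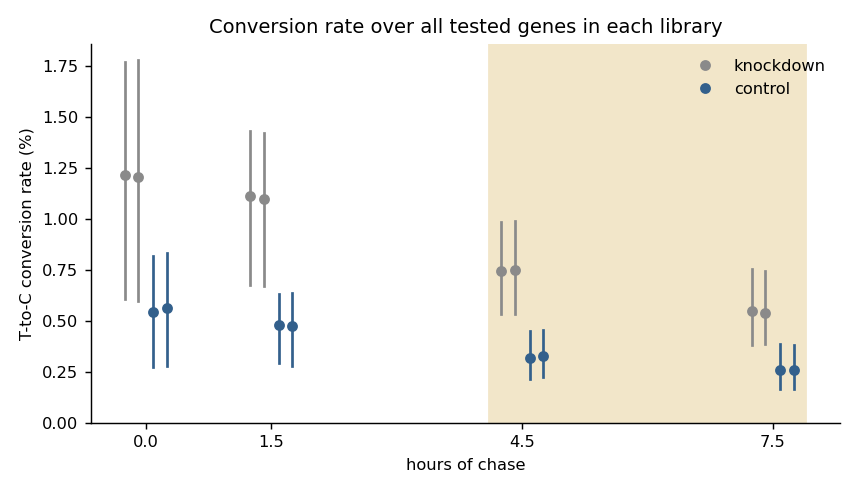
Conversion rate in percent (y axis) against hours of chase (x axis) in each library, with grey for knockdown and blue for control, a point at the median over 10530 genes and a bar over the interquartile range. The shaded span is the late chase, where control medians stood at 0.258% and 0.259% (7.5 h) and at 0.318% and 0.330% (4.5 h).

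At the level of single genes, 358 genes fell and 30 rose between the 2 times, 3.40% and 0.285% of the 10530 tested (limma, Benjamini-Hochberg adjusted p under 0.05). The median change over all genes was −0.23 on the log2 scale, a rate 0.854-fold that at 4.5 h, and 33% of genes had a positive change. Both 7.5 h libraries lay below both 4.5 h libraries for 3462 genes and above both for 1090, which is 32.9% and 10.4% of genes. All changes are differences of log2(rate in percent + 0.05), which understates the change of genes with low rates. When each library was first centred on its own median, the median change became 0.05, and 24 genes rose and 18 fell, 0.228% and 0.171% of genes. Centring raises every late change by the same amount, so that negative list medians above the −0.27 of ZNF genes, which became 0.00, turned positive. With libraries centred on their most abundant genes, 10 rose and 45 fell. The spread came from all 16 libraries, so the standard errors and p-values take it as equal in all groups. Whether it is equal was not tested. The Spearman correlation between replicates was 0.435 and 0.493 in control at 7.5 and 4.5 h, against 0.555 (7.5 h) to 0.847 (0 h) in knockdown. The standard errors and p-values may thus be too small for the 2 groups compared here. From the 8 control libraries alone 5 genes passed, and from the 4 libraries alone 0 passed, with 1593 and 1056 genes at an unadjusted p under 0.05. The count of called genes was 108 without 4.5 h replicate 1, 71 without 4.5 h replicate 2, 401 without 7.5 h replicate 1 and 594 without 7.5 h replicate 2.

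The falls that were called whichever of the 4 libraries was left out included abundant mRNAs of interferon, chromatin and sterol biology. IFI16, a DNA sensor of the interferon response (chr1:158999968-159055155, GRCh38, plus strand), had 0.239% and 0.217% at 7.5 h, against 0.413% and 0.376% at 4.5 h. Its libraries did not overlap, and the change was −0.68 ± 0.08 (SE, adjusted p = 0.00447). H4C3, a replication-dependent gene for histone H4 (chr6:26103876-26104310, plus strand), had 0.210% and 0.221% at 7.5 h, against 0.381% and 0.385% at 4.5 h. That is −0.71 ± 0.09 on the log2 scale (adjusted p = 0.00447), with the 2 times well apart. SQLE, the squalene epoxidase of cholesterol synthesis (chr8:124998497-125022283, plus strand), had 0.206% and 0.204% at 7.5 h, against 0.393% and 0.495% at 4.5 h, a change of −0.94 ± 0.14 (adjusted p = 0.0104). The 2 late libraries of SQLE were nearly alike and the 2 earlier ones spread more. After centring none of these 3 passed, with adjusted p = 0.065 for IFI16 and 0.0527 for each of H4C3 and SQLE (changes of −0.40, −0.43 and −0.67).

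Further falls of this kind, in EPB41L3, C8orf33 and TRIQK, were also called after centring. EPB41L3, a membrane skeleton protein (chr18:5392381-5630700, minus strand), had 0.0895% and 0.105% at 7.5 h, against 0.562% and 0.367% at 4.5 h, or −1.78 ± 0.26 (adjusted p = 0.0104). C8orf33, a gene of little known function, had 0.216% and 0.145% at 7.5 h, against 0.424% and 0.455% at 4.5 h (−1.10 ± 0.14, adjusted p = 0.00633). TRIQK had 0% and 0.0284% at 7.5 h, against 0.654% and 0.675% at 4.5 h (−3.51 ± 0.42, adjusted p = 0.00447). In these 3 genes the 2 times did not overlap. LTBP4, which binds latent TGF-β, and the ciliary protein gene NPHP4 were listed at 0 in both 7.5 h libraries, against 1.09% and 0.754% for LTBP4 and 0.190% and 0.355% for NPHP4 at 4.5 h (adjusted p = 0.00192 and 0.00924), at CPM values of only 9.71 and 7.75.

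**Figure D2:**
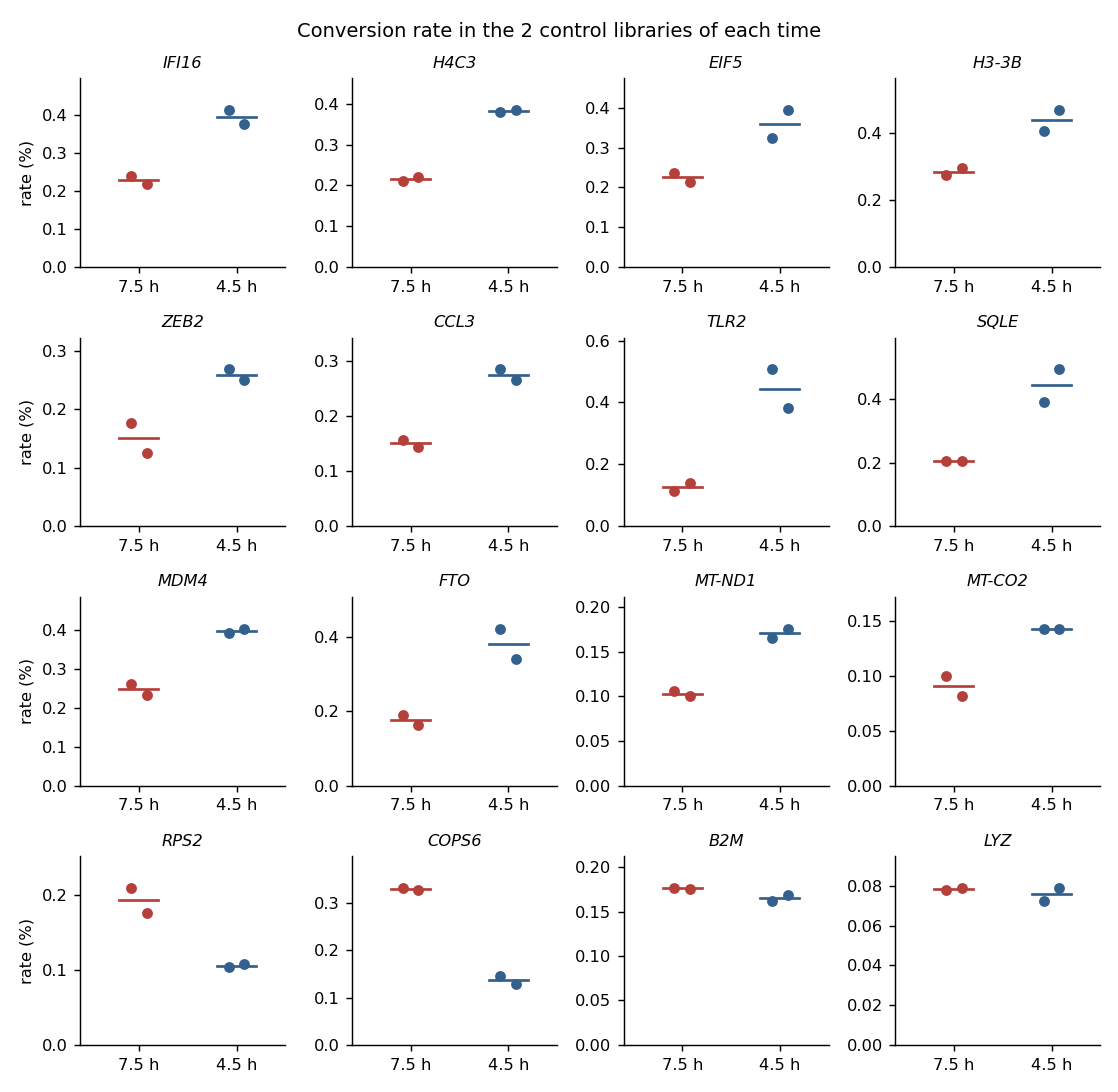
Conversion rate in percent (y axis, from 0) of 16 genes in the control libraries at 7.5 h (red, left) and 4.5 h (blue, right), each point a library and each line the mean of 2. In the first 12 panels, IFI16 to MT-CO2, the late libraries lie below both 4.5 h libraries, in RPS2 and COPS6 they lie above both, and in B2M and LYZ the levels are close.

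Among genes with a CPM of at least 20 the 10 largest falls included those of TRIQK, NOP53, ZNF559, OSBPL5, APBA2, DMTF1 and ELP6, between −3.51 and −1.93. NOP53, a ribosome biogenesis factor, had 0% and 0.145% at 7.5 h, against 0.751% and 0.499% at 4.5 h (−2.75 ± 0.66, adjusted p = 0.0444). OSBPL5, an oxysterol-binding lipid transfer protein, had 0.0220% and 0.0554% at 7.5 h, against 0.477% and 0.288% at 4.5 h (−2.28 ± 0.34, adjusted p = 0.0122). In both genes at least 1 late library was at or close to 0, and both earlier ones were far above it. The zinc finger gene ZNF559, the amyloid precursor adaptor APBA2, the cell cycle factor DMTF1 and the Elongator subunit ELP6 had adjusted p-values from 0.0287 to 0.0483. TRIQK passed in all 4 fits that left out a library, and NOP53 in 1 of them.

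The 30 rises were fewer. The 10 largest with a CPM of at least 20 were TCF7L2, ARMH1, HEXD, AC145207.2, MROH8, C1orf122, AGPAT4, PIH1D1, CRELD2 and NRDE2. TCF7L2, a transcription factor of Wnt signalling, had 0.861% and 1.36% at 7.5 h, against 0.362% and 0.112% at 4.5 h (2.13 ± 0.50, adjusted p = 0.0426). PIH1D1, a subunit of the R2TP assembly complex, had 0.832% and 1.09% at 7.5 h, against 0.270% and 0.291% at 4.5 h (1.6 ± 0.35, adjusted p = 0.0358). In both genes each late library lay above both 4.5 h libraries, and at 0 h TCF7L2 had 1.21% and 1.59% and PIH1D1 0.839% and 0.493%. COPS6, a subunit of the COP9 signalosome, had 0.331% and 0.326% at 7.5 h, against 0.145% and 0.130% at 4.5 h (1.02 ± 0.20, adjusted p = 0.0293). COPS6 was also above its 0 h rates of 0.111% and 0.124%, and it rose in the late chase of knockdown cells too (0.96, adjusted p = 0.0261). A gene with a CPM of at least 1 on the opposite strand overlaps 40.0% of the 30 rises and 36.0% of the 358 falls, beside 43.6% of the 10475 tested genes with a position, and whether the authors counted by strand is not stated. None of these 10 rises was called in all 4 fits that left out a library.

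A consensus element of AU-rich mRNAs, the nonamer TTATTTATT, was looked for in the transcript sense in the 3′ UTR of 1 transcript of each of 8761 tested protein-coding genes. It was found in 705 of them, 8.05% of these 3′ UTRs. Of the 705 genes 48 fell and 1 rose, with a median change of −0.36, against 283 falls and 25 rises among the 8056 genes without it, with a median of −0.25, and 358 of all 10530 genes. The 3′ UTRs with the nonamer were longer, with a median of 2976 bases against 928. With 3′ UTRs in 3 equal classes of length, the medians with and without the nonamer were −0.37 and −0.33 in the longest class, −0.29 and −0.28 in the middle class, and −0.53 over 43 genes and −0.14 in the shortest class. The shares that fell were 7.74% and 4.72%, 5.06% and 3.11%, and 2.33% and 2.88% in the same order, and 6.81% and 3.51% over all lengths. The Pumilio site TGTANATA was in 2448 of the 3′ UTRs, 27.9%, with 129 falls and 3 rises and a median of −0.33. The 6313 genes without it had 202 falls, 23 rises and a median of −0.23. Their 3′ UTRs were shorter, with a median of 707 bases against 2430.5. In the longest, middle and shortest class, the medians with and without the site were −0.34 and −0.33, −0.34 and −0.26, and −0.23 and −0.13. Falls made up 5.94% and 4.46%, 3.11% and 3.25%, and 7.05% and 2.50% in the same order. The 5 sites printed here were chosen because they lie in death regulators, myeloid, hypoxia and NF-κB genes that fell. They are given with the nonamer in capitals, in transcript sense, from GENCODE 29 on GRCh38. A match is a description of the letters only.
XIAP (chrX:123909016-123909044, plus strand): caaatttattTTATTTATTtaattttctt
CFLAR (chr2:201167059-201167087, plus strand): attttatgatTTATTTATTtttctatttc
PLAUR (chr19:43648601-43648629, minus strand): aatattcataTTATTTATTttatacttac
ZEB2 (chr2:144388428-144388456, minus strand): tttcctaattTTATTTATTtcatactgta
PFKFB3 (chr10:6235286-6235314, plus strand): gatgtgctatTTATTTATTtaatatgtat

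Of the death regulators, 3 fell in the late chase. BIRC3, an inhibitor of apoptosis and NF-κB target, had 0.172% and 0.101% at 7.5 h, against 0.279% and 0.397% at 4.5 h (−1.07 ± 0.24, adjusted p = 0.0377). XIAP, the caspase inhibitor, had 0.119% and 0.158% at 7.5 h, against 0.36% and 0.295% at 4.5 h (−1.0 ± 0.21, adjusted p = 0.0323). CFLAR, which blocks caspase-8 at death receptors, had 0.102% and 0.196% at 7.5 h, against 0.411% and 0.433% at 4.5 h (−1.28 ± 0.27, adjusted p = 0.0335). In all 3 the 2 times did not overlap, and each was called in 1 of the 4 fits that left out a library. They were the only falls among 22 tested genes of the BCL2 family and death regulators, where 0 rose and the median was −0.11, so that 13.6% fell beside 3.40% of all genes. All 3 calls ended after centring, where the median was 0.17. The median of that list in the middle chase, from 1.5 to 4.5 h, was −0.60.

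Cytokines and regulators of NF-κB made up the list with the most falls among immune genes. Of 35 tested members 6 fell and 0 rose, 17.1% falls beside 3.40% of all genes, with a median of −0.47 beside −0.23 for all genes. The 6 include BIRC3, already counted among the death regulators, and the chemokine genes CCL3, CCL3L1 and CCL4L2 (−0.73 for CCL4L2, adjusted p = 0.0436 by limma). All 6 calls ended after centring, where 1 member was called higher and the median was −0.19. The chemokine CCL3 had 0.157% and 0.145% at 7.5 h, against 0.286% and 0.266% at 4.5 h (−0.70 ± 0.11, adjusted p = 0.0141). Its 4 rates form 2 tight pairs, far below the 0.980% and 1.06% at 0 h. The near-identical copy CCL3L1, whose reads may be split with CCL3, had 0.215% and 0.260% at 7.5 h, against 0.393% and 0.436% at 4.5 h (−0.69 ± 0.15, adjusted p = 0.0368). PLAUR, the urokinase receptor, had 0.108% and 0.197% at 7.5 h, against 0.321% and 0.312% at 4.5 h (−0.89 ± 0.18, adjusted p = 0.0293), and CYLD, a deubiquitinase that restrains NF-κB, fell by 1.77 (adjusted p = 0.0271). CCL2, the chemokine for monocytes, did not pass, with 0.449% and 0.456% at 7.5 h, against 0.534% and 0.595% at 4.5 h (−0.29 ± 0.07, adjusted p = 0.0565). The count of falls in the list was 2 without 4.5 h replicate 1, 1 without 4.5 h replicate 2, 3 without 7.5 h replicate 1 and 6 without 7.5 h replicate 2.

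Immediate early and other short-lived regulators had the lowest median of the 41 lists, −0.72 over 40 tested genes, in which 4 fell and 0 rose, 10.0% falls beside 3.40% of all genes. All 4 calls ended after centring, where the median was −0.44. Along the chase the list's median rates were 0.977% and 1.02% (0 h), 0.608% and 0.565% (1.5 h), 0.310% and 0.266% (4.5 h), and 0.122% and 0.178% (7.5 h), each time below the one before it. Those that fell included the CBP/p300 partner CITED2, the antiproliferative factor BTG1 and the corepressor IRF2BP2. CITED2 had 0.0493% and 0.0569% at 7.5 h, against 0.449% and 0.161% at 4.5 h (−1.65 ± 0.37, adjusted p = 0.0383). BTG1 had 0.0546% and 0.134% at 7.5 h, against 0.373% and 0.278% at 4.5 h (−1.43 ± 0.33, adjusted p = 0.0423). Both late libraries of each lay below the earlier ones and far below those of 0 h, when CITED2 stood at 1.26% and 1.40% and BTG1 at 0.818% and 0.815%. Calls in the list numbered 0 without 4.5 h replicate 1 and 6 without 7.5 h replicate 2, and the median ran from −0.91 to −0.44 over the fits that left out a library.

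Regulators of the leukaemic and myeloid programme showed 4 falls and 0 rises among 26 tested, 15.4% falls beside 3.40% of all genes, with a median of −0.41. ZEB2, a repressor active in myeloid leukaemia cells, had 0.176% and 0.125% at 7.5 h, against 0.268% and 0.25% at 4.5 h (−0.63 ± 0.12, adjusted p = 0.022). MEF2C, a transcription factor of MLL-rearranged leukaemia, had 0.236% and 0.206% at 7.5 h, against 0.328% and 0.297% at 4.5 h (−0.42 ± 0.08, adjusted p = 0.0287). The chromatin organiser SATB1 and the factor CEBPD also fell, by 0.76 and by 1.78. Of the 4 fits that left out a library ZEB2 was called in 2, MEF2C and CEBPD in 1 each and SATB1 in 0, and all 4 calls ended after centring, where the median was −0.14. Among monocyte surface and secreted proteins 2 of 28 fell, 7.14% beside 3.40% of all genes, and the median was −0.12. Both of these calls ended after centring, where the median was 0.15. TLR2, a receptor for bacterial lipoproteins, had 0.112% and 0.141% at 7.5 h, against 0.508% and 0.381% at 4.5 h (−1.48 ± 0.25, adjusted p = 0.0153). It had begun the chase at 1.6% and 1.31%, and it fell in the late chase of knockdown cells too (−1.46, adjusted p = 0.0117).

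The m6A writers, readers and erasers had a median of −0.64 over 21 tested genes, with 1 fall, FTO, and 0 rises. That is 4.76% falls beside 3.40% of all genes. The call ended after centring, where the median was −0.36. FTO, a demethylase of m6A and of the related cap mark, had 0.191% and 0.163% at 7.5 h, against 0.424% and 0.341% at 4.5 h (−0.93 ± 0.20, adjusted p = 0.0359). The 2 times of FTO did not overlap, and it was called in 1 of 4 fits that left out a library. Of the 21 genes 13 had both late libraries below both 4.5 h libraries and 0 had both above, beside 32.9% and 10.4% of all genes. ALKBH5 itself lay under the CPM minimum and was not tested. Among 15 p53 pathway genes the median was −0.59, and the 1 fall was MDM4, an inhibitor of p53, at 0.261% and 0.234% at 7.5 h, against 0.393% and 0.404% at 4.5 h (−0.59 ± 0.11, adjusted p = 0.0218). This 1 fall is 6.67% of the list beside 3.40% of all genes, and its call ended after centring, where the median was −0.32.

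Most of the mRNAs made in mitochondria fell. Of the 13 mitochondrially encoded mRNAs 8 fell and 0 rose, 61.5% falls beside 3.40% of all genes, and the median was −0.40. Both late libraries lay below both 4.5 h libraries for 10 of them, beside 32.9% of all genes. Their median CPM was 442, and falls were more often called in abundant genes. Of all tested genes 7.42% fell at a CPM from 100 to 500, and 8.85% at a CPM of at least 500. MT-ND1, a core subunit of complex I, had 0.106% and 0.101% at 7.5 h, against 0.165% and 0.176% at 4.5 h (−0.53 ± 0.09, adjusted p = 0.0141). MT-CO2, a catalytic subunit of cytochrome c oxidase, had 0.0996% and 0.0819% at 7.5 h, against 0.142% and 0.143% at 4.5 h (−0.46 ± 0.08, adjusted p = 0.0157). Their levels at 7.5 h were the lowest of the chase: MT-ND1 had 0.428% and 0.466% at 0 h and MT-CO2 0.389% and 0.378%. MT-ND4L and MT-ND4, which overlap on 1 transcript and may share reads, fell by 0.52 and by 0.39. The count of falls was 1 without 4.5 h replicate 1, 0 without 4.5 h replicate 2, 6 without 7.5 h replicate 1 and 5 without 7.5 h replicate 2, and 0 after centring, where the median was −0.12. In the same step of knockdown cells 10 of the 13 fell, beside 4.15% of all genes in that step, and the median was −0.52.

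The nuclear genes for the same machinery gave no calls. None of the 77 nuclear-encoded respiratory chain genes tested fell or rose by limma, with 2 and 8 at an unadjusted p under 0.05, and their median was 0.07. Both late libraries lay above both 4.5 h libraries for 24 of the 77, against 10.4% of all genes, and below for 7. ATP5PF, a coupling factor of ATP synthase, had 0.120% and 0.113% (0 h), 0.149% and 0.156% (1.5 h), 0.180% and 0.185% (4.5 h), and 0.224% and 0.193% (7.5 h). COX7A2, a small subunit of cytochrome c oxidase, had 0.127% and 0.136% (0 h), 0.164% and 0.153% (1.5 h), 0.213% and 0.201% (4.5 h), and 0.228% and 0.212% (7.5 h). The share of converted bases in both was thus highest at the end of the chase, although the late changes, 0.15 ± 0.07 and 0.07 ± 0.07, were not past the threshold (adjusted p = 0.219 and 0.615). Relative to the library medians ATP5PF was higher by 0.43 (adjusted p = 0.026), 1 of 4 such genes in the list.

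Other lists of abundant, long-lived mRNAs also had medians at or just above 0. The 79 cytoplasmic ribosomal protein genes had a median of 0.08, with 0 falls and 1 rise, RPS2. RPS2, of the small subunit, had 0.210% and 0.176% at 7.5 h, against 0.103% and 0.108% at 4.5 h (0.64 ± 0.14, adjusted p = 0.0368), and the annotation holds 20 RPS2 pseudogenes with which it may share reads. Medians were 0.10 for 13 glycolytic enzymes, 0.00 for 30 actin, thymosin and tubulin genes, 0.03 for 18 HLA and antigen presentation genes and 0.11 for 9 lysozyme and granule proteins, with 0 calls in each as measured. In these 4 lists, 0 to 3 members per list were lower and 0 or 1 higher at an unadjusted p under 0.05. B2M, the invariant chain of HLA class I, had 0.177% and 0.175% at 7.5 h, against 0.162% and 0.169% at 4.5 h, a change of 0.07 ± 0.05 (adjusted p = 0.457). LYZ, lysozyme, had 0.0782% and 0.0789% at 7.5 h, against 0.0727% and 0.0791% at 4.5 h. The 2 times of B2M lay close without overlap, and those of LYZ overlapped. After centring B2M, the actin-binding peptide gene TMSB4X and the mitochondrial superoxide dismutase gene SOD2 were called higher, by 0.35, 0.34 and 0.57 (adjusted p = 0.0115, 0.0454 and 0.0204). The nuclear noncoding RNA MALAT1, at 0.299% and 0.290% at 7.5 h, against 0.313% and 0.334% at 4.5 h, had a change of −0.12 ± 0.04 (adjusted p = 0.111), which was positive after centring.

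**Figure D3:**
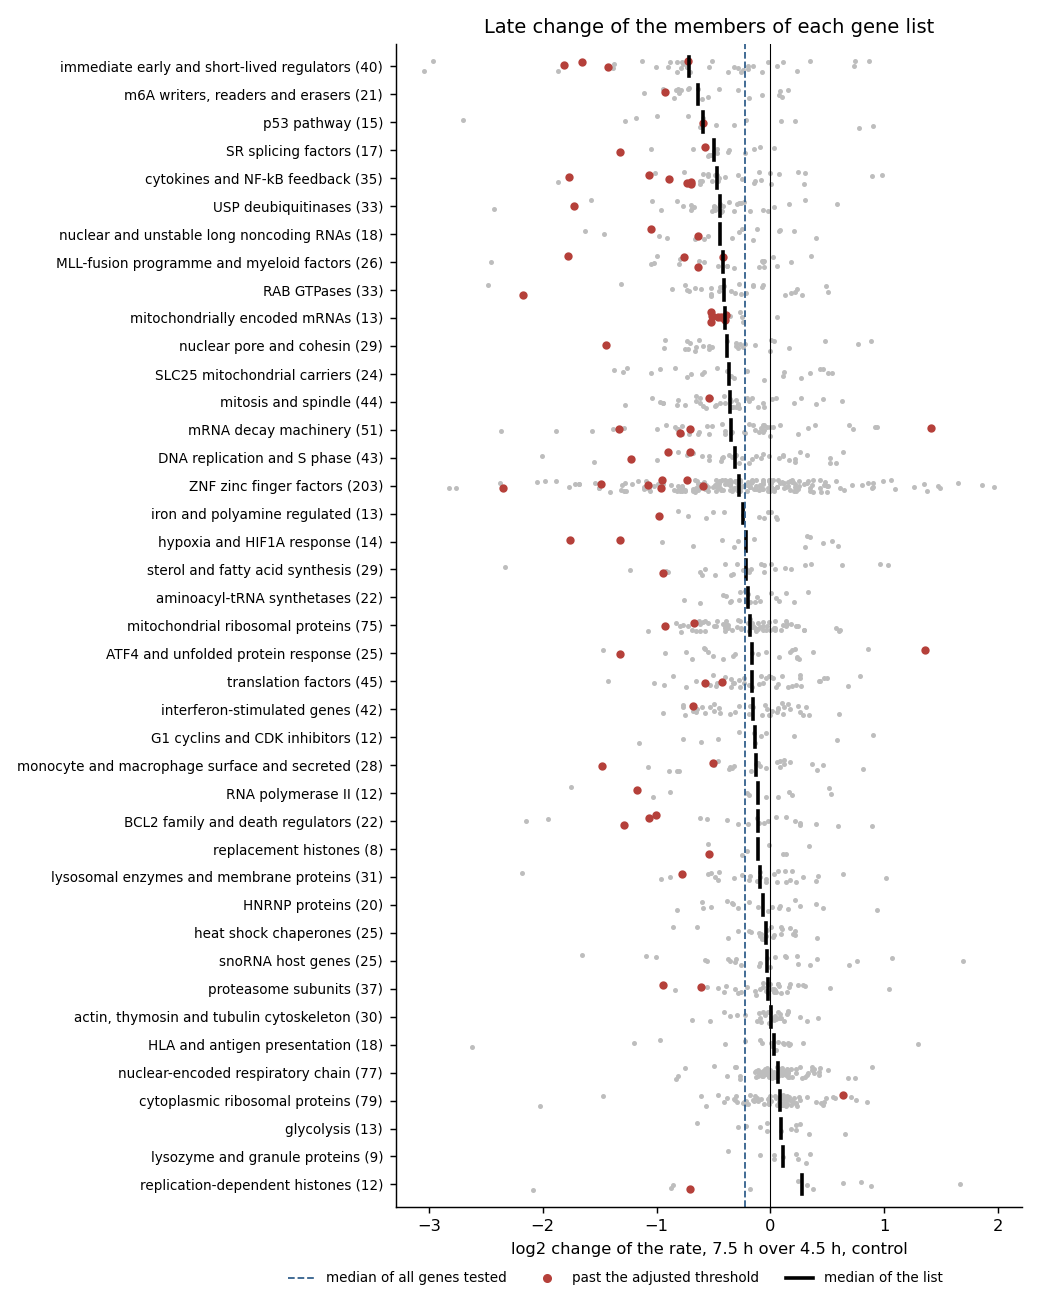
Log2 change of the conversion rate in control cells, 7.5 h over 4.5 h (x axis), for every tested member of 41 gene lists (y axis, number tested in brackets, ordered by median), with red points past the adjusted threshold, black bars at the list medians and a dashed line at the median of all genes, −0.23. List medians run from −0.72 for immediate early and short-lived regulators to 0.28 for 12 replication-dependent histone genes.

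Medians of cell cycle and histone lists lay on both sides of the −0.23 of all genes, and each call in the lists of this paragraph ended after centring. DNA replication and S phase had 3 falls and 0 rises among 43 genes, 6.98% falls beside 3.40% of all genes, and a median of −0.31. The 3 were the polymerase delta subunit POLD3, the clamp loader subunit RFC4 and the checkpoint mediator CLSPN. POLD3 had 0.222% and 0.223% at 7.5 h, against 0.411% and 0.512% at 4.5 h (−0.90 ± 0.17, adjusted p = 0.0253). Mitosis and spindle genes had 1 fall, of the microtubule protein NUSAP1, among 44, 2.27% of the list, and a median of −0.35. Of 12 replication-dependent histone genes tested, H4C3 fell and 0 rose, 8.33% falls beside 3.40% of all genes, and the median was 0.28. The median CPM of these 12 was only 7.71, and their changes ran from −2.08 to 1.67. Among 8 replacement histones the 1 fall, 12.5% of the list, was H3-3B, for histone H3.3. It had 0.273% and 0.295% at 7.5 h, against 0.406% and 0.468% at 4.5 h (−0.54 ± 0.09, adjusted p = 0.0141).

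In lists of RNA processing and translation, falls made up 11.8% of SR splicing factors, 5.88% of the mRNA decay machinery, 4.44% of translation factors, 5.41% of proteasome subunits and 2.67% of mitochondrial ribosomal proteins, beside 3.40% of all genes, and each of these calls ended after centring. The mRNA decay machinery had 3 falls and 1 rise among 51 genes and a median of −0.35. The falls were the CCR4-NOT subunit CNOT9, the poly(A) ribonuclease PARN and the exosome subunit EXOSC3, and the rise was ZC3H12A, the endoribonuclease Regnase-1. SR splicing factors and their kinases had 2 falls, SRSF2 and CLK4, among 17 genes and a median of −0.50. Translation factors had 2 falls among 45: EIF5, which triggers start codon recognition, had 0.237% and 0.214% at 7.5 h, against 0.326% and 0.396% at 4.5 h (−0.57 ± 0.09, adjusted p = 0.0143), and EIF5B fell by 0.43 (adjusted p = 0.0382). Proteasome subunits had 2 falls, PSMD12 and PSMB5, among 37 and a median of −0.02, and mitochondrial ribosomal proteins had 2, MRPS28 and MRPL27, among 75. The calls of EIF5B, SRSF2, MRPL27, PSMB5, PARN, CNOT9 and EXOSC3 also ended at a pseudocount of 0.2, and again with no variance trend. The 203 ZNF zinc finger genes, whose mRNAs are known to turn over fast, had 7 falls and 0 rises, 3.45% of the list beside 3.40% of all genes, and a median of −0.27. Nuclear and unstable long noncoding RNAs had 2 falls, CYTOR and LINC01278, among 18, 11.1% beside 3.40% of all genes. These 2 calls and the 7 of the ZNF genes ended after centring too.

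The remaining lists held 1 or 2 calls or none, and each of these calls ended after centring. Centring instead left 2 interferon-stimulated genes and 1 lysosomal gene called higher. Hypoxia genes had 2 falls among 14, 14.3% beside 3.40% of all genes. They were the oxygen sensor EGLN1 and PFKFB3, which makes the activator of phosphofructokinase. EGLN1 had 0.155% and 0.0797% at 7.5 h, against 0.409% and 0.310% at 4.5 h, and PFKFB3 had 0.0575% and 0.152% at 7.5 h, against 0.478% and 0.423% at 4.5 h. Neither gene's times overlapped (adjusted p = 0.0283 and 0.0377). IFI16 was the single fall among 42 interferon-stimulated genes (2.38%, beside 3.40% of all genes). Other single falls were those of SQLE among 29 genes of sterol and fatty acid synthesis (3.45%) and the protease CTSD among 31 lysosomal genes (3.23%). Others were AMD1, of polyamine synthesis, among 13 iron and polyamine genes (7.69%), NUP214 among 29 nuclear pore and cohesin genes (3.45%) and POLR2B among 12 RNA polymerase II subunits (8.33%). USP46 among 33 USP deubiquitinases and RAB12 among 33 RAB GTPases also fell, 3.03% of each list, both at a CPM under 10. The ATF4 and unfolded protein response list of 25 had 1 fall, of CEBPG, 4.0% of the list, and 1 rise, of CRELD2. Over all genes 3.40% fell and 0.285% rose. By limma 0 members fell or rose among 22 aminoacyl-tRNA synthetases, 25 heat shock chaperones, 12 G1 cyclins and CDK inhibitors, 20 HNRNP proteins, 24 SLC25 carriers and 25 snoRNA host genes. At an unadjusted p under 0.05 these 6 lists held 1 to 4 lower and 0 or 1 higher members, and their medians lay between −0.36 and −0.03.

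How far a gene moved in the late chase varied with its abundance and with its early behaviour. Over 305 genes with a CPM of at least 500 the median change was 0.01 and 8.85% were called, while over 2538 genes with a CPM from 5 to 10 it was −0.29 and 2.29% were called. The median standard error was 0.118 in the first of these classes and 0.562 in the second. The tested genes were also put into 5 equal bins of 2106 by their change from 0 to 1.5 h, a step that shares no library with the late chase. From the bin that lost most label early to the bin that gained most, the median late change was −0.39, −0.29, −0.22, −0.13 and −0.11, and 91, 86, 75, 63 and 43 genes fell. Across genes, which are not independent replicates, the Spearman correlation of the late with the early change was 0.133 over all genes and 0.294 over 1571 genes with a CPM of at least 100. By biotype, 389 processed pseudogenes had a median of 0.05, 8972 protein-coding genes −0.25, and 284 long intergenic noncoding genes and 479 antisense genes −0.12 each.

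**Figure D4:**
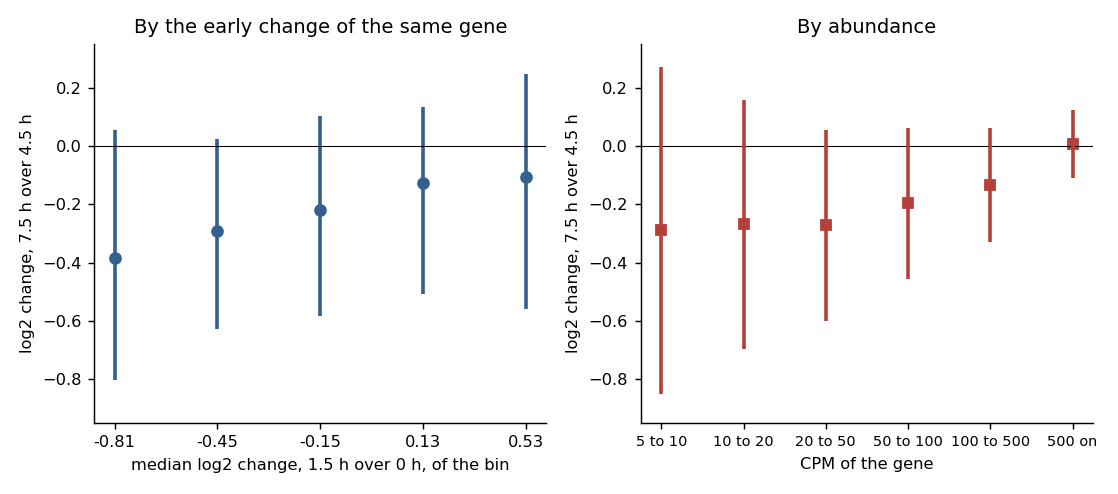
Log2 change in control cells, 7.5 h over 4.5 h (y axis), on the left in 5 bins of 2106 genes ordered by their change from 0 to 1.5 h (x axis, bin medians; bars span the interquartile range), on the right in 6 classes of CPM (squares, class medians; bars, ± the median standard error of a gene). Medians run from −0.39 to −0.11 over the early bins and from −0.29 to 0.01 over the CPM classes.

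The late step was set against the middle step, from 1.5 to 4.5 h, which is as long and shares the 4.5 h libraries. The median change was −0.23 in the late step and −0.36 in the middle step, and the calls were 358 falls and 30 rises in the late step and 999 falls and 58 rises, 9.49% and 0.551% of genes, in the middle step. The difference of the 2 steps was tested for each gene. It was positive past the threshold for 3 genes, 0.0285% of those tested, and negative for 0 (limma), with 750 and 386 genes at an unadjusted p under 0.05. The median difference was 0.08 as measured and −0.13 after centring. Centring left the same 3 genes past the threshold, but 474 genes were then positive and 765 negative at an unadjusted p under 0.05 by limma. The balance of directions thus depends on the scale. The 3 were MYT1L, ZC3H12A and KCTD10, all at low CPM values of 10.6, 9.92 and 6.83. MYT1L, a zinc finger factor of neurons, had 0.717% and 1.00% at 1.5 h, was listed at 0 in both libraries at 4.5 h, and had 6.37% and 6.26% at 7.5 h. ZC3H12A had 0.599% and 0.831% at 1.5 h, was listed at 0 at 4.5 h, and had 0.0671% and 0.10% at 7.5 h. KCTD10, an adaptor of a ubiquitin ligase, had 1.06% and 0.834% (1.5 h), 0.0156% and 0.0426% (4.5 h), and 0.215% and 0.219% (7.5 h). In each of these genes both 4.5 h libraries were at or near 0 and the times on either side were higher. The count was 1 without 1.5 h replicate 2, 13 and 21 without 4.5 h replicates 1 and 2, and 12 and 6 without 7.5 h replicates 1 and 2. With a CPM of at least 20, 0 genes passed by limma and 633 had an unadjusted p under 0.05.

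Lists that lost label in the middle step did not all go on losing it in the late step at the same size. The ZNF genes had a median of −0.27 in the late step and −0.77 in the middle step, and 25 snoRNA host genes −0.03 and −0.59. Short-lived regulators had −0.72 in the late step and −1.0 in the middle step, mitochondrially encoded mRNAs −0.40 and −0.74, and m6A genes −0.64 and −0.39. No member of these 5 lists passed the test of the difference between the steps. Since the steps share libraries, a high or low value at 4.5 h enters both with opposite sign.

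**Figure D5:**
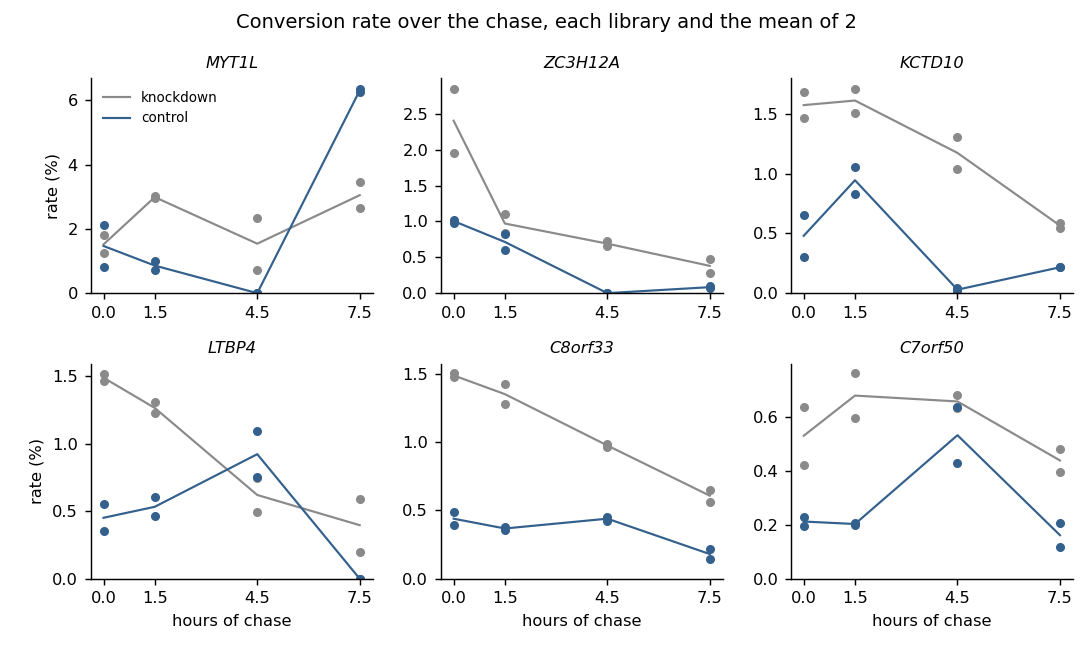
Conversion rate in percent (y axis, own scale per panel) against hours of chase (x axis) for 6 genes, each point a library and each line the mean of 2, grey for knockdown and blue for control. MYT1L, ZC3H12A and KCTD10 were at or near 0 in control at 4.5 h and higher at 7.5 h, whereas LTBP4, C8orf33 and C7orf50 had mean rates at 4.5 h no lower than at 1.5 h, and low rates or 0 at 7.5 h.

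The same late step in ALKBH5 knockdown cells gave 437 falls and 5 rises, 4.15% and 0.0475% of genes, against 358 and 30 in control, and a median change of −0.38, against −0.23. The knockdown columns were assigned by elimination, since their header names do not spell out the genotype. Rates were higher in knockdown at both times: the library medians stood at 0.548% and 0.541% (7.5 h) and at 0.746% and 0.748% (4.5 h). They were already higher at 0 h, where the mean of the library medians was 1.21% in knockdown and 0.553% in control. The 0.05 added before the logarithm weighs more on the lower control rates. At a pseudocount of 0.01 the control median change was −0.27. The median of the difference, knockdown minus control, was −0.11, and −0.10 at a pseudocount of 0.01. After centring it was 0.03, with 443 genes higher and 435 lower at an unadjusted p under 0.05 by limma. The larger fall in knockdown was thus a shift of whole libraries that centring removed. The difference between the 2 late steps, knockdown minus control, passed the threshold for 0 of 10530 genes (limma), and the share called was 0% in either direction, with 271 genes higher and 679 lower at an unadjusted p under 0.05. The smallest adjusted p was 0.0508, for MYT1L, which knockdown cells held at 2.64% and 3.46% (7.5 h), against 2.35% and 0.732% (4.5 h). NPHP4 and ADNP-AS1 came nearest to it among genes with a less negative late step in knockdown (adjusted p = 0.0981 each), with NPHP4 in knockdown cells at 0.983% and 0.818% (7.5 h), against 0.621% and 0.397% (4.5 h). Without knockdown 7.5 h replicate 2, 8 genes passed, without control 4.5 h replicate 1, 6 did, without 1 or the other control 7.5 h library 4 did, and without knockdown 4.5 h replicate 2, 1 did. Across genes, the Spearman correlation of the control and the knockdown late change, which share no library, was 0.233 over all genes and 0.517 over those with a CPM of at least 100. IFI16, H4C3, SQLE, EIF5, H3-3B and CCL3 fell in both genotypes, with changes in knockdown of −0.73, −0.71, −0.96, −0.72, −0.69 and −0.67 (adjusted p from 0.00512 to 0.00989), against −0.68, −0.71, −0.94, −0.57, −0.54 and −0.70 in control. EPB41L3 was called in control and had 0.06 in knockdown (adjusted p = 0.92), a difference between genotypes that did not pass the test.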

How the data were processed

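Conversion rates of each gene in each of 16 libraries were deposited by the authors as fractions, T-to-C conversions over a gene's T bases, and are given here in percent. The deposited table has 1 CPM column, and which library it stems from is not stated; its low values are whole multiples of 0.026455. The submitters' processing notes name HISAT2 2.1.0, CASAVA and the build hg38, with no role given, per the labels. Whether counting used strand or introns is not given in the sources used here. The numbers of T bases are unknown, so no counting interval is given, and a rate of 0 means only that the gene is listed at 0. No unlabelled library was used here, so background mismatch was not measured.

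Rates of the 10530 genes were tested as log2(percent + 0.05) with limma 3.58.1 in R 4.3.3, with 8 group means, 8 residual degrees of freedom, a variance trend in CPM and Benjamini-Hochberg adjustment at 0.05. The script was tested on simulated data. Centring subtracts each library's median log2 rate. Genes, 3′ UTRs and positions come from GENCODE 29 on GRCh38, matched for 10475 genes. Members and lists were chosen with earlier results of these data known. Genes named in the text are the 10 largest changes each way with a CPM of at least 20 and no overlap of the groups, 5 each way after centring, the 3 smallest p-values each way for the step and genotype differences, and up to 4 called or 2 most abundant members per list. Some genes that this rule names are not reported here. Alternatives were other CPM minimums, pseudocounts, scalings, sample sets, a replicate block and leaving out each library. The correlation of late with early change at CPM minimums of 1 and 20 was added after seeing the data.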

Additional observations from a re-analysis of the deposited data

Results flagged for a closer look

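In 3 genes the late change differed from the middle change in control cells by a test of the difference itself (limma, adjusted over all genes tested). The adjusted p was 0.000428 for MYT1L, 0.00794 for ZC3H12A and 0.0170 for KCTD10. MYT1L had 6.37% and 6.26% at 7.5 h and was listed at 0 at 4.5 h, ZC3H12A had 0.0671% and 0.10% and was listed at 0, and KCTD10 had 0.215% and 0.219%, against 0.0156% and 0.0426% at 4.5 h. In knockdown cells none of the 3 was near 0 at 4.5 h: MYT1L had 2.35% and 0.732%, ZC3H12A 0.723% and 0.659%, and KCTD10 1.04% and 1.31%. KCTD10 overlaps the genes UBE3B and MYO1H.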

How the results depend on the processing

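The 388 calls of the late step in control became 136 with no CPM minimum, 26 at a pseudocount of 0.2, 187 with no variance trend, 5 from the 8 control libraries, 0 from the 4 compared libraries, 42 after centring and 55 centred on the most abundant genes, and 71 to 594 when a library was left out. The 42 centred calls became 67 at a CPM of at least 20, 9 with rates above 0 in all 4 libraries or a pseudocount of 0.2, 131 at a pseudocount of 0.01, 20 with no variance trend, 5 from 8 libraries and 0 from 4, where 956 had an unadjusted p under 0.05, and 31 to 270 when a library was left out. The 3 calls of late minus middle became 6 at a CPM of at least 1, 0 at 20, 5 with no minimum, 10 at a pseudocount of 0.01, 6 with no variance trend, and 1 in each of the other 3 changed settings (rates above 0, pseudocount 0.2, 8 libraries), and 1 to 21 when a library was left out. The 0 calls of knockdown minus control became 4 at a pseudocount of 0.01, 2 with no variance trend and 0 to 8 when a library was left out. The mean of the 7.5 h medians was 0.255% at a CPM of at least 1 and 0.262% at 20. MALAT1, −0.12 as measured, was at 0.16 after centring and 0.034 centred on the most abundant genes, and LYZ ran from −0.0057 to 0.068 when a library was left out. The causes were not tested.

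With a replicate block the calls were 275, 44 centred, 3 for late minus middle and 0 for knockdown minus control. Same-numbered libraries did not deviate together, with correlations from −0.0381 to 0.0381 over 28 pairs of groups. Of the 89 named genes called, 89 kept their direction in every setting without centring, 10 passed in all 4 fits that left out a library and 8 in none, and 0 were called in every such setting, since none passed from the 4 compared libraries alone. Of 656 list medians recomputed under an alternative, 98 moved by more than the spread between replicates. Precision is limited by 2 libraries per group and by unknown numbers of T bases.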
